A study of Mus musculus with 11 samples.

Results

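The endothelial identity genes are 10 genes by which the cells lining blood vessels are usually recognised: Kdr, Flt1, Tek, Tie1, Pecam1, Emcn, Eng, Erg, Sox18 and Vwf. They were taken by symbol from the RNA-seq tables of mouse embryonic stem cells (mESCs) and mouse embryonic fibroblasts (MEFs), which list 34570 genes between them. All 10 members are listed for MEFs and 9 for mESCs, and Emcn was not analysed here in mESCs. The study asked what loss of ATXN7L3 does to these cells, since this protein is an adaptor of the module that removes ubiquitin from histone H2B. Analysed here is poly(A)+ RNA from 2 WT (Atxn7l3+/+) and 3 Atxn7l3-/- mESC libraries and from 3 WT and 3 Atxn7l3-/- MEF libraries. All are of the DBA/2 x C57BL/6 strain and without any treatment other than culture. By the study's methods, 1 further WT mESC dataset was left out by the authors because it clustered apart from the other replicates. The mESCs came from single blastocysts, began on feeder cells and were then grown without them, with LIF, 15% serum, 1 µM PD0325901 and 3 µM CH99021. The MEFs came from single E10.5 embryos from which the head and gut had been removed, the rest of the embryo being dissociated and plated. By the study's methods, both knockout cultures derive from crosses of mice with a germline null allele, whose recombination sites flank most of the exons of Atxn7l3. The p-values measure the spread between these cultures, which for WT mESCs is that of the 2 libraries the authors kept. Cell type cannot be told apart from the table and preparation it belongs to.

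Endothelial cells read the growth factor VEGF through the receptor kinases KDR and FLT1, and angiopoietins through TEK, with TIE1 as its partner. PECAM1, endomucin (EMCN) and endoglin (ENG) sit on their surface, ERG and SOX18 are transcription factors of their programme, and von Willebrand factor (VWF) is made by them for release into blood. Several of these genes are not restricted to vessels, and Pecam1 in particular is a known surface marker of mESCs.

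Library totals were between 34515342 and 49602605 counts, so that 3 counts, taken here as the floor of detection, lay between 0.0605 and 0.0869 CPM (counts of a gene scaled to a common library size). The floor covers counting error only. Atxn7l3 itself had 10317 and 9849 counts in WT mESCs and 130, 75 and 37 in Atxn7l3-/- mESCs. In MEFs it had 4245, 3742 and 4258 counts in WT and 2130, 2168 and 2449 in the libraries labelled Atxn7l3-/-, a log2 fold change of -0.74 ± 0.21 (SE; edgeR, adjusted p = 0.0715). By RNA counts of the whole gene, the loss was therefore visible in mESCs and only in part in MEFs. The study itself reports no detectable ATXN7L3 protein in either knockout cell type, and more ubiquitylated H2B in both. The knockout MEFs are called the MEF libraries labelled Atxn7l3-/- or, for short, mutant MEFs. In all, 4 Y-linked genes summed to 64 to 269 counts in Atxn7l3-/- mESC replicates 1 and 2 and to 34 counts in WT MEF replicate 3, against 5957 to 20907 in the other 8 libraries, and no member lies on X or Y.

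More than 3 counts in every library of the group were found for 9 of the 9 listed members in WT mESCs, 7 of 9 in Atxn7l3-/- mESCs, 7 of 10 in WT MEFs and 5 of 10 in mutant MEFs. In MEFs the defining surface marker Pecam1 had 1 to 17 counts, Tie1 had 0 to 4, and Cdh5, the cadherin of endothelial junctions, had 9 to 15 in WT and 0 to 3 in mutant MEFs. In mESCs Pecam1 was abundant while Cdh5 had 8 to 10 counts in WT and 0 to 1 in Atxn7l3-/- libraries. The name endothelial is thus not borne out by the defining markers in either culture, and each member is described as a gene and not as a measure of cell number. In bulk RNA, fewer cells of a type and less RNA per cell cannot be told apart.

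**Figure D1:**
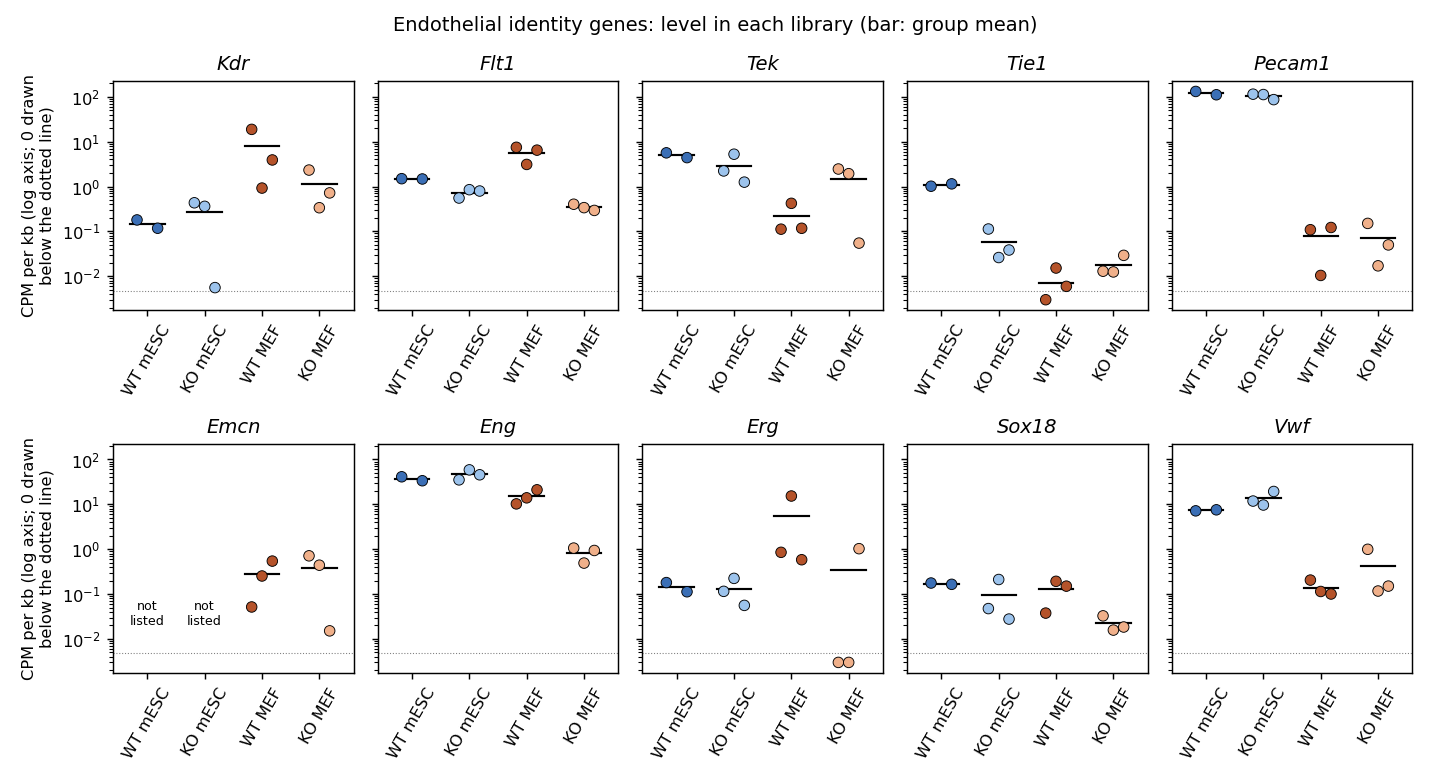
Level of each endothelial identity gene in each library, in CPM per kb of median transcript length on a log axis, with the bar at the group mean and libraries without a count drawn below the dotted line. Pecam1 stands at 86.3 to 131 CPM per kb in mESCs and at or below 0.151 in MEFs, whereas Flt1 and Eng separate the 3 WT MEF libraries from the 3 mutant ones.

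Calls were made with edgeR's quasi-likelihood test at an adjusted p of 0.05 or less over all genes tested. In WT MEFs against WT mESCs, 26.8% of the 19312 genes tested were higher and 27.1% lower, and of the 9 members 2 were higher (Kdr, Flt1) and 5 lower (Tek, Tie1, Pecam1, Eng, Vwf). In mutant MEFs against Atxn7l3-/- mESCs, 29.5% of genes were higher and 31.5% lower, and of the members none was higher and 4 were lower (Flt1, Pecam1, Eng, Vwf). By genotype, 3.08% of the 17800 genes tested were higher and 3.88% lower in Atxn7l3-/- than in WT mESCs, and 1 of 9 members was lower (Tie1). In MEFs 5.01% of 15958 genes were higher and 4.39% lower in mutant than in WT, and 2 of the 8 members tested were lower (Flt1, Eng). Tie1 and Sox18 did not pass the filter on low counts in MEFs. The median log2 fold change of the members by genotype was -0.17 in mESCs and -1.53 in MEFs, against 0.04 and -0.06 over all genes tested. The members did not share a direction, with 3 positive and 6 negative in mESCs. In MEFs 3 were positive (Tek, Vwf, Emcn) and 5 negative. The interaction of cell type and genotype, which asks whether the effect of genotype differs between MEFs and mESCs, was called positive for 6.15% and negative for 5.27% of genes, and for 1 and 2 of the 9 members. The negative ones were Flt1 and Eng. The positive one was Tie1, which entered the joint fit through its mESC counts. Its call therefore rests on the fall in mESCs and shows no genotype effect in MEFs.

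The windows around the start sites of the 3 genes called by genotype are shown because all 3 are classical endothelial genes. Flt1 and Eng were called in MEFs and not in mESCs. Tie1 was called in mESCs and, at its low counts, could not be tested in MEFs. RefSeq windows were found for 7 of the 10 members (build GRCm38.p6, 250 bases before to 50 after the start, gene strand, 5′ to 3′). Capitals mark GGAA on either strand (so TTCC too), the core that ETS factors such as ERG bind.
Flt1, chr5:147725962-147726261, minus strand: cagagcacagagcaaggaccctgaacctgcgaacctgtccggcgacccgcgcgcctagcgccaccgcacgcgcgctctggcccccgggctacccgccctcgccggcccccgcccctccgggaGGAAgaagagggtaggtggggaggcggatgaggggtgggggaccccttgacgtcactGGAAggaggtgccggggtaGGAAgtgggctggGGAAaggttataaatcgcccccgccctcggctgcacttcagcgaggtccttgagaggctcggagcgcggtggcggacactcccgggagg
Eng, chr2:32646345-32646644, plus strand: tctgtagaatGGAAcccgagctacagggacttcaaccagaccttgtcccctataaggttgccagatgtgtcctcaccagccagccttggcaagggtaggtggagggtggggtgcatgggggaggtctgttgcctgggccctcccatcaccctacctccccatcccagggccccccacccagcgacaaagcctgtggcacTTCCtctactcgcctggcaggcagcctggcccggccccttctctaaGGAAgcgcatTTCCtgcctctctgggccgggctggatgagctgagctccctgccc
Tie1, chr4:118489800-118490099, minus strand: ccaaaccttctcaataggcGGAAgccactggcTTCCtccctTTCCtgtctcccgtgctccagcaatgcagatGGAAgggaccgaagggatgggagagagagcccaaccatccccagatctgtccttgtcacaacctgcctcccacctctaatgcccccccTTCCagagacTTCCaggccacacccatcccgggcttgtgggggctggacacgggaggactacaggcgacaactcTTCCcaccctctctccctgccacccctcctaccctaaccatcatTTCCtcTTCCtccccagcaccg
GGAA occurred 4 times in the Flt1 window, 4 times in that of Eng and 9 times in that of Tie1, and at least once in 96% of the 32851 windows of this length, whose median was 3. The letters GATA, on either strand, were in none of these windows and in 57.9% of all windows. The Flt1 window had 29 CG dinucleotides and those of Eng and Tie1 had 6 and 7, beside a median of 7 over all windows. A match is a description of the letters and not of a bound site.

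Both VEGF receptors were higher in WT MEFs than in WT mESCs, and Flt1 fell with genotype in MEFs. Flt1, also called VEGFR1, lies at chr5:147561604-147726011 (mm10, minus strand). It had 3.05 and 3.00 CPM in WT mESCs and 1.13, 1.73 and 1.62 in Atxn7l3-/- mESCs. In MEFs it had 15.2, 6.33 and 13.2 CPM in WT and 0.821, 0.689 and 0.598 in mutant replicates 1, 2 and 3. No mutant MEF library reached any WT one, and the same order without overlap was seen in mESCs over a narrower range. The log2 fold change by genotype in MEFs was -4.06 ± 0.49 (SE; 16.7-fold, adjusted p = 0.0114). In mESCs it was -0.97 ± 0.44 (adjusted p = 0.184), and the interaction was -3.02 ± 0.65 (adjusted p = 0.0201). Flt1 was higher in WT MEFs than in WT mESCs by 1.94 ± 0.50 (adjusted p = 0.00756) and lower in mutant MEFs than in Atxn7l3-/- mESCs by -1.08 ± 0.43 (adjusted p = 0.0475). The first of these calls was lost without WT mESC replicate 1 (adjusted p = 0.0546) or 2 (0.0607), and the second without any 1 of 9 of the 11 libraries (0.0526 to 0.115) or without the filter on low counts (0.0744). With the replicate numbers of MEFs as a block, the interaction of Flt1 had an adjusted p of 0.0536.

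Kdr, the main signalling receptor for VEGF, varied widely within its groups. It had 0.724 and 0.473 CPM in WT mESCs and 1.74, 1.45 and 0.0225 in the Atxn7l3-/- mESCs, the last of these a single count. WT MEF replicates 1, 2 and 3 had 75.5, 3.71 and 15.7 CPM, and mutant replicates 1, 2 and 3 had 9.35, 1.35 and 2.90. The WT MEF libraries thus spanned 20.3-fold, the mutant range overlapped theirs, and within each replicate number the mutant library was the lower one. The genotype difference in MEFs, a log2 fold change of -2.85 ± 1.18, was not called (adjusted p = 0.15). With the replicate block it was -2.34 and was called (adjusted p = 0.0274), and the interaction with the block was called as well (adjusted p = 0.0198, against 0.213 without it). WT MEFs had more Kdr than WT mESCs by 5.72 ± 1.72 on the log2 scale (adjusted p = 0.0165), while the difference between the mutant cultures was 2.08 ± 1.23 (adjusted p = 0.162).

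Tek and its partner Tie1 were both lower in WT MEFs than in WT mESCs, neither was called between the mutant cultures, and Tie1 fell with genotype in mESCs. Tie1 (chr4:118471191-118490061, minus strand) had 218 and 228 counts in WT mESCs, or 4.15 and 4.69 CPM. The 3 Atxn7l3-/- mESC libraries had 18, 5 and 7 counts, or 0.462, 0.107 and 0.157 CPM. All 3 lay far below both WT libraries. The log2 fold change was -4.14 ± 0.68 (SE; 17.6-fold, adjusted p = 0.0256). The call was lost on leaving out WT replicate 1 (adjusted p = 0.154), WT replicate 2 (0.157) or Atxn7l3-/- replicate 1 (0.0815), with fold changes between -4.99 and -4.06. In MEFs Tie1 had 0, 2 and 1 counts in WT and 2, 2 and 4 in mutant libraries. These counts are at or next to the floor, so no fold is given there, and Tie1 was lower in WT MEFs than in WT mESCs (adjusted p = 0.000184).

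Tek, the receptor that angiopoietin-1 activates, was not called by genotype in either cell type. It had 24.5 and 19.2 CPM in WT mESCs and 9.70, 22.9 and 5.46 in Atxn7l3-/- mESCs, with overlapping ranges. It had 0.489, 1.84 and 0.511 CPM in WT MEFs and 10.7, 8.42 and 0.239 in mutant replicates 1, 2 and 3. Replicates 1 and 2 of the mutant MEFs were above every WT library, and replicate 3 was below every one. The difference of 2.75 ± 1.23 on the log2 scale was not called (adjusted p = 0.173), and without mutant replicate 3 it was called at 3.34 (adjusted p = 0.0432). In mESCs the difference was -0.76 ± 0.53 (adjusted p = 0.367). WT MEFs had less Tek than WT mESCs by -4.54 ± 1.17 (adjusted p = 0.00781), and between the mutant cultures the difference was -0.97 ± 0.98 (adjusted p = 0.404).

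Among the surface proteins, Pecam1 separated the cell types and Eng separated the genotypes of MEFs. Pecam1 had 393 and 331 CPM in WT mESCs and 341, 335 and 258 in Atxn7l3-/- mESCs. It had 0.326, 0.0312 and 0.365 CPM in WT MEFs and 0.450, 0.0511 and 0.149 in mutant MEFs. Every mESC library was above every MEF library, and within each cell type the genotypes overlapped. The log2 difference of MEFs from mESCs was -10.47 ± 0.74 in WT (adjusted p = 4.88e-06) and -10.47 ± 0.74 in mutant cultures (adjusted p = 2.36e-06). By genotype it was -0.17 ± 0.21 in mESCs (adjusted p = 0.611) and -0.21 ± 0.97 in MEFs (adjusted p = 0.898). Pecam1 alone made up 56.3% to 69.8% of the members' summed CPM per kb in mESCs, and at most 1.85% in MEFs.

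Eng encodes endoglin, a co-receptor for ligands of the TGF-beta family, and lies at chr2:32646595-32682669 (plus strand). It had 81.3 and 66.4 CPM in WT mESCs and 69.5, 116 and 90.0 in Atxn7l3-/- mESCs. WT MEFs had 20.2, 27.6 and 41.6 CPM and mutant MEFs 2.09, 0.970 and 1.85. The MEF genotypes did not overlap, whereas the mESC genotypes did. In MEFs the log2 fold change was -4.20 ± 0.46 (SE; 18.3-fold, adjusted p = 0.00922), in mESCs it was 0.36 ± 0.24 (adjusted p = 0.36), and the interaction was -4.50 ± 0.54 (adjusted p = 0.00243). Eng was lower in MEFs than in mESCs in WT (-1.31 ± 0.37, adjusted p = 0.0118) and in mutant cultures (-5.81 ± 0.41, adjusted p = 2.58e-06). Of the 4048 exon bases of Eng, 61 are shared with Fpgs on the opposite strand, and whether the counting used strand is not given in the sources used here.

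In MEFs the fold change by genotype fell with the GC content of transcripts (Spearman's rho = -0.39 across 15944 genes, which are not independent replicates), and the transcripts of Eng and Flt1 have 57.3% and 49.8% GC. With each library's GC trend taken out, the log2 fold change in MEFs was -3.62 for Eng (adjusted p = 0.0114) and -4.11 for Flt1 (adjusted p = 0.0125). Emcn, a sialomucin of veins and capillaries, had 0.102, 0.499 and 1.07 CPM in WT MEFs and 1.40, 0.868 and 0.0299 in mutant MEFs. Its genotypes overlapped, at a log2 fold change of 0.44 ± 1.17 (adjusted p = 0.816).

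**Figure D2:**
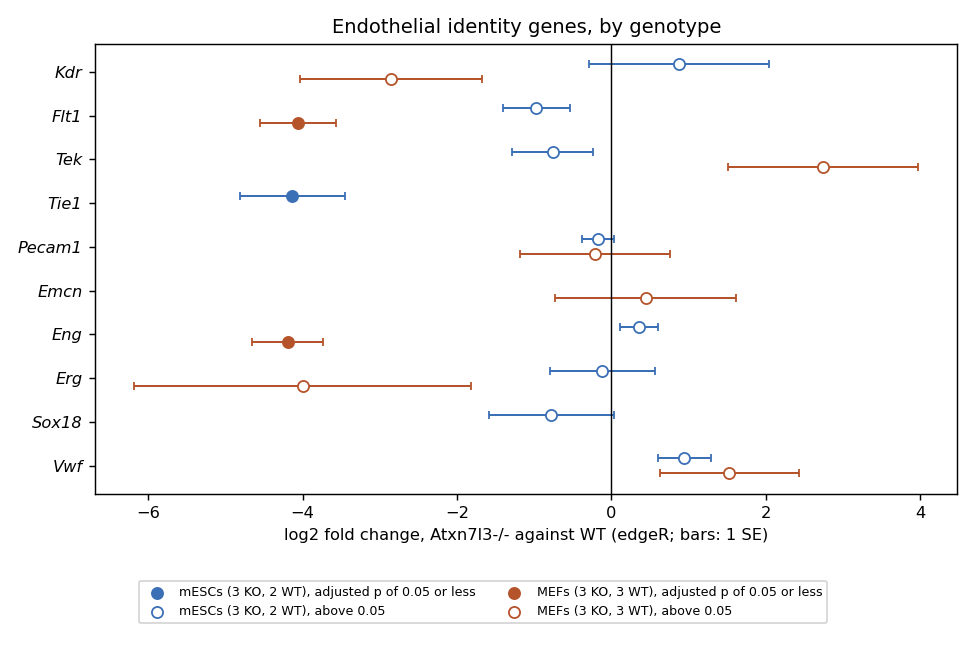
Log2 fold change of each endothelial identity gene in Atxn7l3-/- against WT mESCs (blue) and in mutant against WT MEFs (brown), with bars of 1 SE from edgeR and filled points for an adjusted p of 0.05 or less. Filled points are Tie1 in mESCs (-4.14) and Flt1 and Eng in MEFs (-4.06 and -4.20), and genes not listed or filtered out have no point.

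The transcription factors were low and uneven. Erg had 19 and 11 counts in WT mESCs and 9, 21 and 5 in Atxn7l3-/- mESCs. In MEFs it had 84, 986 and 48 counts in WT (1.71, 30.7 and 1.17 CPM) and 0, 0 and 69 in mutant libraries. WT replicate 2 stood 17.98-fold above the next WT library in CPM, and mutant replicate 3 lay within the WT range. The log2 fold change of -4.00 ± 2.18 was not called (adjusted p = 0.244). Erg in WT MEFs was above WT mESCs by 5.24 ± 2.26, which was not called (adjusted p = 0.0713), and leaving out mutant MEF replicate 3 from the fit gave a call (adjusted p = 0.022). Sox18, a SOX factor of vessel and lymphatic development, had 15 and 13 counts in WT mESCs, 3, 16 and 2 in Atxn7l3-/- mESCs, 3, 10 and 10 in WT MEFs and 1 to 2 in mutant MEFs. None of the tests of Sox18 called a difference, and its highest level was 0.342 CPM.

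Vwf was a gene of mESCs in these libraries. It had 15.6 and 16.5 CPM in WT mESCs and 25.8, 21.1 and 42.2 in Atxn7l3-/- mESCs. All 3 Atxn7l3-/- mESC libraries lay above both WT ones, and the difference of 0.95 ± 0.35 on the log2 scale was not called (adjusted p = 0.12). In MEFs it had 0.448, 0.249 and 0.219 CPM in WT and 2.17, 0.255 and 0.329 in mutant libraries, where replicate 1 alone stood out (1.53 ± 0.90, adjusted p = 0.277). MEFs were lower than mESCs by -5.69 ± 0.85 in WT (adjusted p = 0.000353) and by -5.01 ± 0.79 in mutant cultures (adjusted p = 0.000349).

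Put in order by mean CPM per kb, WT mESCs had Pecam1 (121 ± 14.5, SD, n = 2), Eng (37.3 ± 5.33), Vwf (7.35 ± 0.275), Tek (5.01 ± 0.867), Flt1 (1.48 ± 0.016) and Tie1 (1.08 ± 0.0924) ahead of Sox18, Kdr and Erg, which lay between 0.146 and 0.171. The last 3 did not differ beyond their spread. WT MEFs had Eng (15.1 ± 5.5, SD, n = 3), Kdr (7.86 ± 9.55), Flt1 (5.68 ± 2.29) and Erg (5.58 ± 8.43), and every other member was at or below 0.283. Kdr and Erg overlapped each of the other three in range, whereas every WT MEF library of Eng, at 10.2 to 21.1 CPM per kb, was above every one of Flt1, at 3.10 to 7.48. In mutant MEFs the first places went to Tek (1.48 ± 1.26) and Kdr (1.13 ± 1.05), and Eng was at 0.828 ± 0.299. These orders depend on the median transcript length by which each gene was divided. By mean CPM in WT mESCs, Tek (21.9) was above Vwf (16.1) and Tie1 (4.42) above Flt1 (3.02). In WT MEFs the mean CPM of Kdr (31.6) was above that of Eng (29.8). Summed over the listed members, the level was 442 to 523 CPM in WT and 398 to 499 in Atxn7l3-/- mESCs, and 71.4 to 114 in WT and 8.31 to 27.1 in mutant MEFs.

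Other genes of the endothelial pathway, a list of 62 ligands, receptors, junction proteins, transcription factors and secreted proteins, were examined by the same test. In MEFs 52 were tested, of which 8 fell, 2 rose and 42 were not called, with a median log2 fold change of -0.93. Over all genes tested there, 4.39% fell and 5.01% rose. The genes that fell were the ligands Pgf (which binds FLT1; -3.68 ± 0.40, adjusted p = 0.00922) and Apln (apelin; -4.08 ± 0.94, adjusted p = 0.0451), the Notch target Hey1 (-4.06 ± 0.66, adjusted p = 0.0214), Sox7 (-2.85 ± 0.57, adjusted p = 0.0343) and Acvrl1 (-2.82 ± 0.45, adjusted p = 0.0207). Acvrl1 encodes ALK1, the receptor kinase that signals together with endoglin. The remaining 3 were of the junction and surface genes, and mutant libraries had no more than 6 counts of any of them. Clec14a had 52 to 886 counts in WT and 0 to 2 in mutant MEFs (adjusted p = 0.0397), Plvap 23 to 37 and 0 to 2 (adjusted p = 0.0248), and Mmrn2 33 to 95 and 1 to 6 (adjusted p = 0.0376). Those that rose were Vegfc, the ligand of the lymphatic VEGF receptor (2.42 ± 0.56, adjusted p = 0.0459), and Mmrn1, with 1 to 5 counts in WT and 20 to 557 in mutant MEFs (adjusted p = 0.0378).

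In mESCs 49 pathway genes were tested, of which 3 rose, 5 fell and 41 were not called, with a median of 0.06. Over all genes tested there, 3.08% rose and 3.88% fell. Those that rose were Mmrn2 (1.36 ± 0.28, adjusted p = 0.0357), Mcam (1.24 ± 0.30, adjusted p = 0.0496) and Podxl (1.23 ± 0.20, adjusted p = 0.0236), 3 surface proteins or their partners. Vegfc fell (-2.06 ± 0.42, adjusted p = 0.0343), opposite to its direction in MEFs, and the interaction for Vegfc was called (4.55 ± 0.76, adjusted p = 0.00802). Mmrn2, which rose in mESCs, fell in MEFs, and its interaction was called as well (-4.87 ± 0.66, adjusted p = 0.00402). Robo4, a guidance receptor of endothelial cells, had 252 and 457 counts in WT and 4 to 42 in Atxn7l3-/- mESCs (adjusted p = 0.0454). Cd34, a sialomucin of vessels and blood progenitors, had 71 and 83 counts in WT and 0 to 1 in Atxn7l3-/- mESCs (adjusted p = 0.0211). Sox7 and Clec14a, which also fell in MEFs, went from at most 25 counts in WT to at most 2 in Atxn7l3-/- mESCs (adjusted p = 0.0417 and 0.0496). Of the pathway genes 5 were called positive and 6 negative in the interaction, out of 59 tested, beside 6.15% and 5.27% of all genes. Among those called, Robo4 and Rasip1 did not pass the filter on low counts in MEFs, and Mmrn1 did not in mESCs. For these genes the genotype effect could be tested in 1 cell type only.

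**Figure D3:**
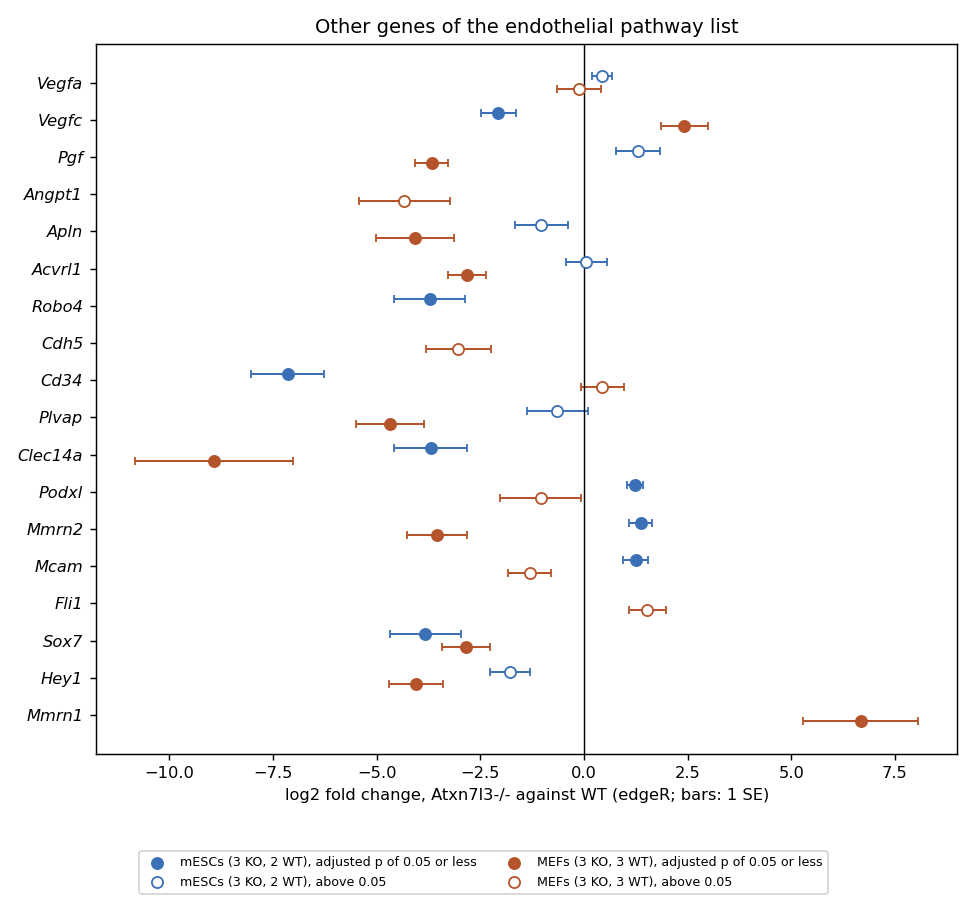
Log2 fold change by genotype of the endothelial pathway genes that were called in either cell type and of Vegfa, Angpt1, Cdh5 and Fli1, in mESCs (blue) and MEFs (brown), with bars of 1 SE from edgeR and filled points for an adjusted p of 0.05 or less. Sox7 and Clec14a are filled and negative in both cell types, and Vegfc (-2.06 in mESCs, 2.42 in MEFs) and Mmrn2 (1.36 in mESCs, -3.55 in MEFs) are filled with opposite signs.

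The main ligand of the VEGF receptors, Vegfa, was among the pathway genes not called by genotype, at 0.43 ± 0.24 in mESCs (adjusted p = 0.267) and -0.12 ± 0.53 in MEFs (adjusted p = 0.888). It had 78.6 to 134 CPM in mESCs and 36.5 to 141 in MEFs. Fli1, an ETS factor akin to ERG, had 8.40 to 9.70 CPM in WT and 11.7 to 39.4 in mutant MEFs (1.53 ± 0.44, adjusted p = 0.071), and at most 3 counts in mESCs. Angpt1, the ligand that activates TEK, had 14.8 to 57.6 CPM in WT and 0.128 to 3.39 in mutant MEFs (-4.34 ± 1.098, adjusted p = 0.055), and at most 3 counts in mESCs. Cdh5 was not called in MEFs (adjusted p = 0.0594). Between the WT cultures, 34 of 59 pathway genes were higher in MEFs and 8 lower, with a median of 2.87, beside 26.8% and 27.1% of all genes. Between the mutant cultures 31 were higher and 12 lower, beside 29.5% and 31.5% of all genes. Of the 9 members, 2 were higher and 5 lower between the WT cultures, Tie1 at its floor in MEFs among the latter. None was higher and 4 were lower between the mutant cultures.

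In the same libraries, mesothelial and some mural cell markers were called by genotype in MEFs, while no macrophage or fibroblast marker was. Mesothelial markers summed to 49.4 to 92.2 CPM in WT MEFs and to 6894 to 10917 in mutant MEFs, with 6 of 7 called higher, none lower and all above the floor in every MEF library. Mural cell markers, those of the pericytes and smooth muscle around vessels, summed to 8591 to 14538 CPM in WT and 1212 to 5579 in mutant MEFs. Called lower were 2 of 10, Rgs5 (-5.44, adjusted p = 0.0308) and Myh11 (-4.30, adjusted p = 0.00933). All 10 had a negative fold change, with a median log2 fold change of -2.47. Beside these lists, 5.01% of all genes tested in MEFs were called higher and 4.39% lower. Macrophage markers summed to 680 to 1366 CPM in WT and 879 to 6428 in mutant MEFs, with none of 13 called. The highest of them was Lyz2, at 350 to 674 CPM in WT and 718 to 5384 in mutant MEFs, and it weighs heavily in the sum. Across the 13 markers, 6 fold changes were positive and 7 negative, with a median log2 fold change of -0.04. Fibroblast markers summed to 7934 to 43826 CPM in WT and 19230 to 25725 in mutant MEFs, with none of 10 called. The part of these lists in the fall of Flt1 and Eng was not tested.

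Blood and erythroid markers summed to at most 18.01 CPM in every library, with Alas2 higher in mutant MEFs (5.42, adjusted p = 0.0387). Of the pluripotency markers, Tfcp2l1 was higher in mutant MEFs (5.36, adjusted p = 0.00591), at 27.2 to 75.1 CPM against 1.07 to 1.56 in WT. In mESCs the pluripotency markers summed to 4372 to 5140 CPM in WT and 4680 to 5087 in Atxn7l3-/- libraries, with none of 8 called. Fibroblast markers there summed to 22.5 and 101 CPM in WT and to 276 to 400 in Atxn7l3-/- libraries. Called higher was 1 of 9, Col1a1 (2.54, adjusted p = 0.0469), beside 3.08% of all genes. All 9 had a positive fold change, with a median log2 fold change of 2.54. The part of these markers in the fall of Tie1 was not tested.

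**Figure D4:**
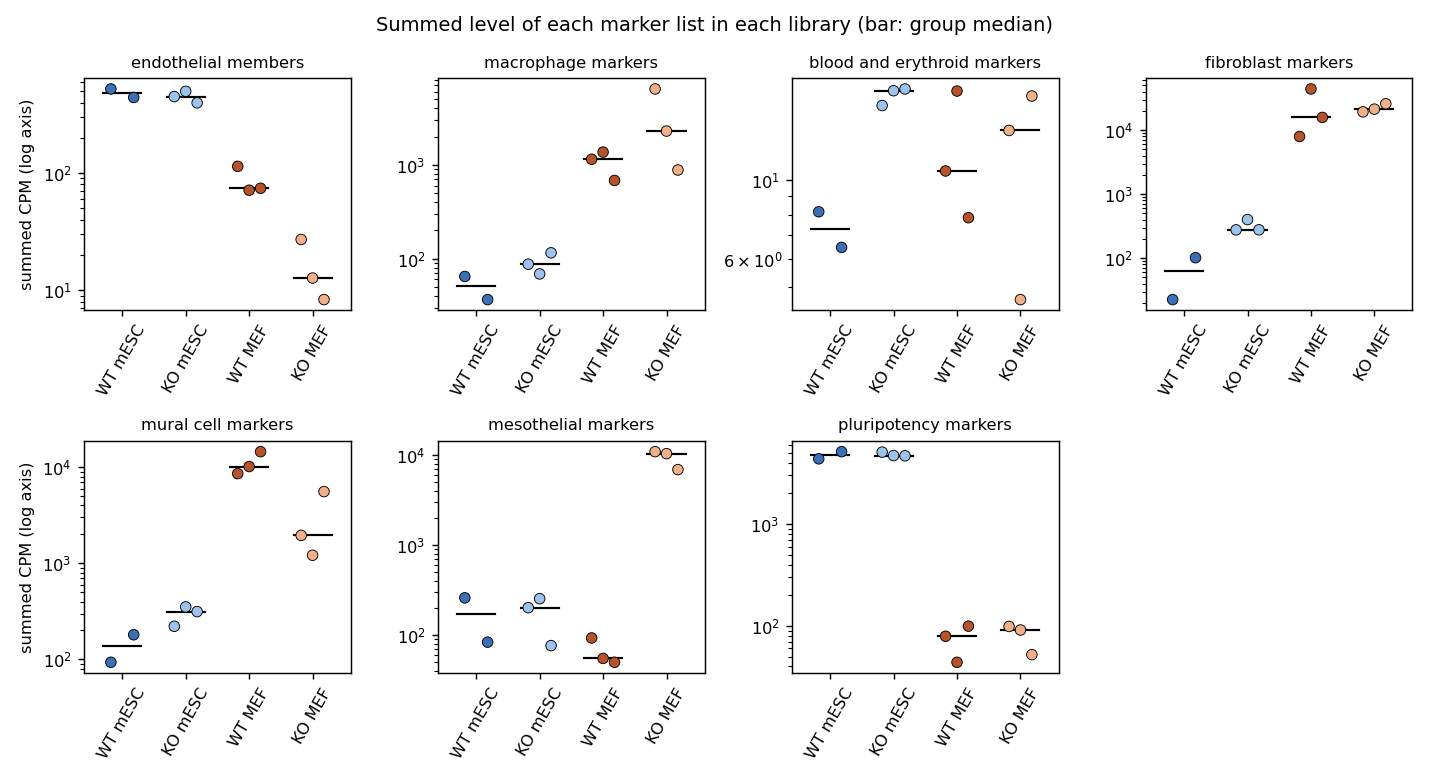
Summed CPM of the endothelial identity genes and of 6 marker lists in each library, on log axes that differ between panels, with the bar at the group median. The 3 mutant MEF libraries are lowest for the endothelial members (8.31 to 27.1) and highest for mesothelial markers (6894 to 10917).

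The genes with profiles most like each member over the 11 libraries were sought among the 19312 genes of the joint fit, by the root mean square difference of centred log2 CPM. For Eng they were Fgd5 (0.496), Qpct (0.628) and Chst3 (0.642). For Flt1 they were Ralyl (0.491), Casq1 (0.501) and Igsf1 (0.520), with Cdh5 the nearest endothelial gene in place 69. For Tie1 they were Gm13078 (0.442), BC080695 (0.504) and Gm20767 (0.558), with Robo4 the nearest endothelial gene in place 43. For Pecam1 they were Fbxo15 (0.662), Cldn4 (0.667) and Zscan10 (0.760), and for Vwf Ppm1n (0.506), Ltk (0.6002) and Rasd2 (0.675). Kdr, Tek and Erg had no neighbour nearer than 0.906, with Syn2, Prph and Apol6 first, and Sox18, at its low counts, had Sesn2 (0.536). No other member was the nearest endothelial gene of any member. The mean profile of the 9 members was nearest to Ttc34 (0.335), Pde8a (0.355) and Zfp454 (0.377).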

How the data were processed

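RNA-seq was analysed from 2 tables of counts, deposited by the authors for mESCs and MEFs. The authors trimmed the reads, mapped them to mm10 with STAR 2.5.3a and counted them per gene with HTSeq 0.6.1p1 (versions per the submitters' processing notes), whose annotation and strand setting are not given in the sources used here. As deposited, the tables hold raw counts, a normalized signal (counts divided by 1 size factor per library) and that signal per kb of median transcript length. They also hold the authors' DESeq2 fold changes and p-values, which were not used. Members were matched by symbol, and their coordinates equalled GENCODE M21.

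Raw counts were normalized by TMM and filtered by filterByExpr in edgeR 4.0.16 (R 4.3.3), and tested by edgeR's quasi-likelihood test, each cell type by itself for genotype and all 11 libraries together for cell type and the interaction. P-values were adjusted by Benjamini-Hochberg over all genes tested. Levels are CPM over 11 libraries, their logs with 2 as prior count, and SE is the fold change divided by the root of F. Depth ran from 34515342 to 49602605 counts. Alternatives were RLE, no filter, at least 10 counts in every library, DESeq2 1.42.0, 1 fit of all libraries, the replicate block, leaving out each library, the deposited normalized counts for detection, and, chosen after seeing the data, a GC correction (lowess span 0.3). Fits were tested on simulated counts.

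Replicate numbers come from the labels alone, and each culture is its own animal. Deviations from the group means of same-numbered MEF libraries correlated across 15958 genes at 0.47, 0.16 and 0.24, all above 0.1, so blocked values are given for MEFs where they change a call.

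The members and lists were chosen with earlier results of these data known. The text names every member, Atxn7l3, and of the pathway list the 3 called genes with the largest change in each direction and Cdh5, Fli1, Vegfa and Angpt1. It also names the nearest profiles and, of each other list, the genes called where 3 or fewer were. Of the genes highest in each other list, only Lyz2 and Tfcp2l1 are named. The remaining called pathway genes in mESCs and MEFs were added after their values were seen.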

Additional observations from a re-analysis of the deposited data

Results flagged for a closer look

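For 3 members the genotype effect in MEFs was tested as different from that in mESCs, with an interaction term in edgeR's quasi-likelihood test over all 11 libraries. Eng had an interaction of -4.50 on the log2 scale (adjusted p = 0.00243), with all 3 mutant MEF libraries below all 3 WT ones and overlapping genotypes in mESCs. It was called under each alternative that gave a value.

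Flt1 had an interaction of -3.02 (adjusted p = 0.0201). Within each cell type, every Atxn7l3-/- library had less Flt1 than any WT library, and the genotype difference was called in MEFs and not in mESCs.

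Tie1 had an interaction of 5.60 (adjusted p = 0.0241). The fall in mESCs stood against 0 to 2 counts in WT MEFs and 2 to 4 in mutant MEFs, so this fitted value depends on the prior count and is no bound on a difference.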

How the results depend on the processing

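Eng and Flt1 were called lower in mutant MEFs under every alternative run, and all 3 members called by genotype kept their direction where they were tested. With DESeq2, 4 members were called in MEFs, adding Kdr (-2.82, adjusted p = 0.0326) and Tek (2.78, adjusted p = 0.047), and with the replicate block 3 were called. The block called more genes of any kind in MEFs, 2232 of the 15958 tested against 1501 without it. The share of all genes called with DESeq2 is not given here. With at least 10 counts in every library, none of the members left was called in mESCs (Tie1 was not left), 2 between WT cultures and 2 between mutant cultures, because the filter removed the others. Leaving out 1 library gave 0 to 1 calls by genotype in mESCs, 2 to 3 in MEFs, 4 to 8 between WT cultures, 3 to 4 between mutant cultures and 1 to 5 in the interaction. The interaction lost Flt1 and Tie1 without WT mESC replicate 1 or 2, lost Tie1 without Atxn7l3-/- mESC replicate 3, and gained Tek and Erg without mutant MEF replicate 3. The replicate block also took the interaction of Tie1 above 0.05 (adjusted p = 0.0566). Between WT cultures, Kdr and Flt1 were lost without WT mESC replicate 1 or 2 and Eng without replicate 1, and Flt1 between mutant cultures was lost without any 1 of 9 of the 11 libraries or without the filter.

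The sign changed, without a call, for Erg in mESCs (-0.71 to 0.27 over left-out libraries, 0.22 with the block), Pecam1 (-1.27 to 0.27), Emcn (-0.28 to 1.37, -0.065 and -0.10 with the GC correction without and with the block) and Vwf (-0.064 to 1.98) in MEFs, Sox18 between WT cultures (-0.87 to 0.00264), Erg between mutant cultures (-6.53 to 1.97), and Pecam1 (-1.13 to 0.48, -0.024 with RLE, -0.068 with the block) and Vwf (-0.97 to 1.12) in the interaction. The cause was not tested. In mESCs the numbers do not pair the libraries (correlations of 0.0078 and -0.17 across genes for the shared numbers 1 and 2), and the block changed no call among the members there. Members at or near 3 counts, such as Tie1 and Sox18 in MEFs, are limited by depth, and a lone library left by the removal of another was assumed to vary like the other groups.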
